A study of Homo sapiens with 11 samples.

Results

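The CD1 and receptor rearrangement genes are 10 genes that developing T-cells use in the thymus: CD1A, CD1B, CD1C, CD1D, CD1E, RAG1, RAG2, DNTT, ARPP21 and ELOVL4. They were taken by name, and each was read from the probe set with the highest mean over all cell lines among the probe sets that carry its symbol alone. All 10 genes were measured, by 19 of the 54613 probe sets, against 19775 genes with a symbol of their own in all. The study profiled total RNA of 11 established T-cell acute lymphoblastic leukemia (T-ALL) cell lines, each on 1 HG U133 Plus 2.0 array, to set lines with aberrant NKL homeobox gene expression against lines without it. The 6 NKL-positive lines were JURKAT, LOUCY, PEER, HPB-ALL, ALL-SIL and CCRF-CEM, and the 5 NKL-negative lines were SUP-T1, CML-T1, MOLT-16, MOLT-14 and MOLT-4. No treatment is given for any line, and the values are RMA log2 values, so that 1 unit is a doubling of signal.

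A thymocyte assembles its antigen receptor genes by cutting and rejoining DNA. RAG1 and RAG2 form the recombinase that cuts at the recombination signals, and DNTT, terminal deoxynucleotidyl transferase, adds nucleotides without a template where the ends are joined. Cortical thymocytes, which carry both CD4 and CD8, also display CD1 proteins, relatives of MHC class I that present lipids in place of peptides. In leukemia diagnosis CD1A marks the cortical type of T-ALL, and early T-cell precursor leukemia lacks it. ARPP21, an RNA-binding cAMP-regulated phosphoprotein, and ELOVL4, an elongase of very long chain fatty acids, were grouped with these genes by the choice of members.

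Each line was measured once in 1 culture, so the spread within a line is unknown and neighbouring lines in an order of levels cannot be told apart. The lines differ in many lesions besides NKL status. All lines kept T-lineage identity: of 9 markers, 8 were above the array median in LOUCY and 8 or 9 in every other line. The medians of the arrays lay between 4.63 and 4.76, their lower quartiles between 3.45 and 3.60 and their upper quartiles between 6.68 and 7.18. The poly-A spike-in controls, bacterial transcripts added to the RNA before labelling, read at background in MOLT-16, HPB-ALL and CML-T1 (mean 3.01 to 3.14) and between 5.96 and 9.48 in the other 8 lines.

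The 10 genes varied far more between lines than most genes did. Their ranges over the 11 lines ran from 5.47 log2 units for ARPP21 to 10.52 for CD1E, against a median range of 1.66 over all 19775 genes, and the smallest of them was at the 96.4th percentile. To describe a line, each gene's value was set against its own median over the 11 lines, and the median of these 10 deviations was taken as the score of the line. Among NKL-positive lines the score was 3.04 in HPB-ALL, 0.47 in JURKAT, 0 in CCRF-CEM, -0.94 in ALL-SIL, -3.17 in PEER and -3.78 in LOUCY. Among NKL-negative lines it was 2.92 in MOLT-4, 1.99 in SUP-T1, 0.55 in MOLT-14, -0.86 in CML-T1 and -2.94 in MOLT-16. Both groups thus held lines near the top and near the bottom of the order.

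At the top, all 10 genes were above the upper quartile of the array in HPB-ALL and in MOLT-4, and 9 were in SUP-T1, where DNTT at 6.32 was the exception. At the bottom, none of the 10 was above that quartile in LOUCY or MOLT-16, and DNTT alone was in PEER. Counts for the lines between were 8 in JURKAT, 5 in CCRF-CEM, 5 in MOLT-14, 4 in CML-T1 and 3 in ALL-SIL. Probe sets differ in brightness, so these counts describe a line against its array and do not rank the genes.

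**Figure D1:**
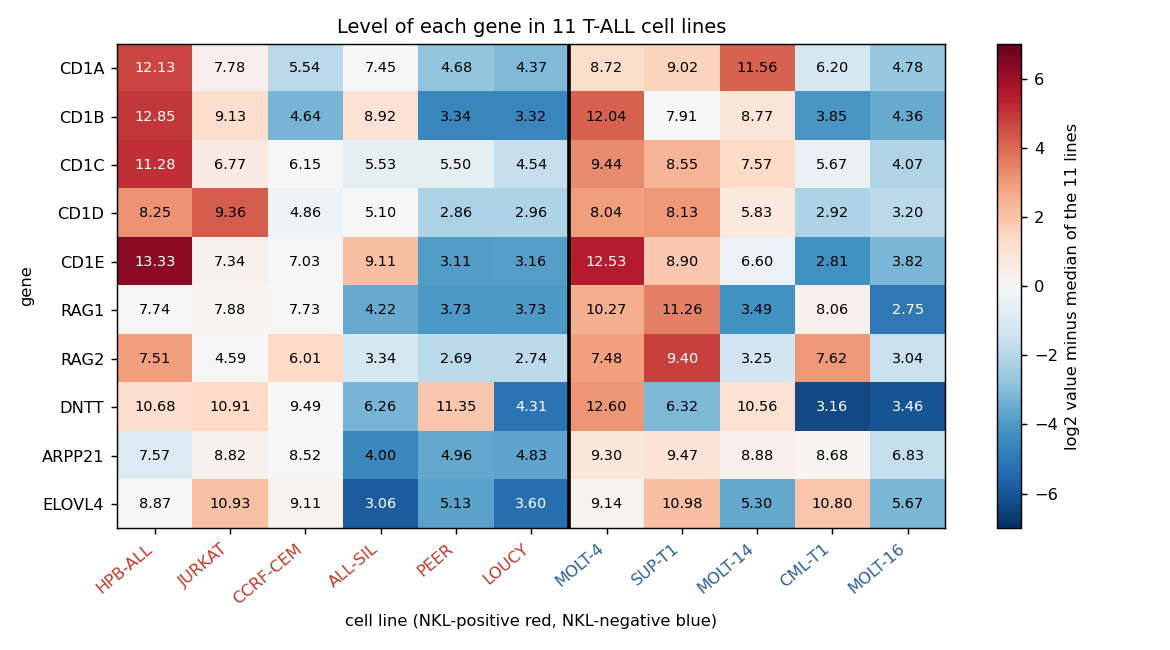
RMA log2 value of each of the 10 genes (rows) in each of the 11 lines (columns), printed in the cells, with NKL-positive lines left of the black bar and NKL-negative lines right of it, each ordered by score; colour is the value minus the gene's median over the 11 lines. HPB-ALL and MOLT-4 are above the gene median for most genes, and MOLT-16 and LOUCY are below it for every gene.

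The lines between the extremes were not dimmer copies of HPB-ALL, and each combined high and low genes in its own way. CML-T1 had the recombinase set, with RAG1 at 8.06, RAG2 at 7.62, ARPP21 at 8.68 and ELOVL4 at 10.80, but CD1E at 2.81, CD1B at 3.85 and DNTT at 3.16, the lowest DNTT of all lines. MOLT-14 showed the opposite in part, with CD1A at 11.56, CD1B at 8.77 and DNTT at 10.56 but RAG1 at 3.49 and RAG2 at 3.25. Its ARPP21 was high as well, at 8.88, and its CD1E, at 6.60, was below the gene median of 7.03. ALL-SIL had 2 CD1 genes above their medians with the recombinase low, with CD1E at 9.11 and CD1B at 8.92 against RAG1 at 4.22 and RAG2 at 3.34, and it had the lowest ARPP21 and ELOVL4. PEER expressed DNTT at 11.35 with every other gene at 5.50 or lower. JURKAT had the highest CD1D of all lines, 9.36, with ELOVL4 at 10.93, DNTT at 10.91 and RAG2 at 4.59.

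CD1A, CD1B and CD1C, which present lipid antigens at the cell surface, were highest in HPB-ALL. CD1A read 7.45 in ALL-SIL, 5.54 in CCRF-CEM, 12.13 in HPB-ALL, 4.37 in LOUCY, 4.68 in PEER and 7.78 in JURKAT, against 6.20 in CML-T1, 8.72 in MOLT-4, 11.56 in MOLT-14, 4.78 in MOLT-16 and 9.02 in SUP-T1. HPB-ALL and MOLT-14 stood more than 2 units above every other line, and LOUCY, PEER and MOLT-16 lay near the array median. CD1B read 8.92 in ALL-SIL, 4.64 in CCRF-CEM, 12.85 in HPB-ALL, 3.32 in LOUCY, 3.34 in PEER and 9.13 in JURKAT, against 3.85 in CML-T1, 12.04 in MOLT-4, 8.77 in MOLT-14, 4.36 in MOLT-16 and 7.91 in SUP-T1. It split the lines, with 6 above the upper quartile of their arrays and 5 below the array median. CD1C read 5.53 in ALL-SIL, 6.15 in CCRF-CEM, 11.28 in HPB-ALL, 4.54 in LOUCY, 5.50 in PEER and 6.77 in JURKAT, against 5.67 in CML-T1, 9.44 in MOLT-4, 7.57 in MOLT-14, 4.07 in MOLT-16 and 8.55 in SUP-T1. CD1C was above the upper quartile of the array in HPB-ALL alone among NKL-positive lines, and in MOLT-4, SUP-T1 and MOLT-14 among NKL-negative ones.

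CD1D, the member that presents lipids to natural killer T-cells, was highest in JURKAT instead. It read 5.10 in ALL-SIL, 4.86 in CCRF-CEM, 8.25 in HPB-ALL, 2.96 in LOUCY, 2.86 in PEER and 9.36 in JURKAT, against 2.92 in CML-T1, 8.04 in MOLT-4, 5.83 in MOLT-14, 3.20 in MOLT-16 and 8.13 in SUP-T1. JURKAT, HPB-ALL, SUP-T1 and MOLT-4 formed the upper end, and 4 lines were below the lower quartile of their arrays. CD1E stays inside the cell, where it helps to load lipids onto the other CD1 proteins, and it had the widest range. Its values were 9.11 in ALL-SIL, 7.03 in CCRF-CEM, 13.33 in HPB-ALL, 3.16 in LOUCY, 3.11 in PEER and 7.34 in JURKAT, against 2.81 in CML-T1, 12.53 in MOLT-4, 6.60 in MOLT-14, 3.82 in MOLT-16 and 8.90 in SUP-T1. A second CD1E probe set gave 2.96 to 12.35 with the same lines at both ends (Pearson r = 0.98 over 11 lines).

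The recombinase genes were highest in SUP-T1. RAG1 read 4.22 in ALL-SIL, 7.73 in CCRF-CEM, 7.74 in HPB-ALL, 3.73 in LOUCY, 3.73 in PEER and 7.88 in JURKAT, against 8.06 in CML-T1, 10.27 in MOLT-4, 3.49 in MOLT-14, 2.75 in MOLT-16 and 11.26 in SUP-T1. The lines fell apart into 6 at 7.73 or more and 5 at 4.22 or less, with none between. RAG2 read 3.34 in ALL-SIL, 6.01 in CCRF-CEM, 7.51 in HPB-ALL, 2.74 in LOUCY, 2.69 in PEER and 4.59 in JURKAT, against 7.62 in CML-T1, 7.48 in MOLT-4, 3.25 in MOLT-14, 3.04 in MOLT-16 and 9.40 in SUP-T1. The same 5 lines were lowest for both genes, and JURKAT, with RAG1 at 7.88, had the lowest RAG2 of the other 6. The second RAG1 probe set was dim, between 2.65 and 4.91, and tracked the first only in part (r = 0.58), with SUP-T1 highest in both.

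DNTT had a pattern of its own. It read 6.26 in ALL-SIL, 9.49 in CCRF-CEM, 10.68 in HPB-ALL, 4.31 in LOUCY, 11.35 in PEER and 10.91 in JURKAT, against 3.16 in CML-T1, 12.60 in MOLT-4, 10.56 in MOLT-14, 3.46 in MOLT-16 and 6.32 in SUP-T1. PEER and MOLT-14 were high for DNTT and among the 5 lowest lines for both RAG genes, while CML-T1 was lowest for DNTT with RAG1 at 8.06 and RAG2 at 7.62. Its 3 probe sets gave the same picture, the others correlating with the first at r = 0.996 and r = 0.91.

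ARPP21 and ELOVL4 followed the recombinase more than the CD1 genes. ARPP21 read 4.0 in ALL-SIL, 8.52 in CCRF-CEM, 7.57 in HPB-ALL, 4.83 in LOUCY, 4.96 in PEER and 8.82 in JURKAT, against 8.68 in CML-T1, 9.30 in MOLT-4, 8.88 in MOLT-14, 6.83 in MOLT-16 and 9.47 in SUP-T1. ELOVL4 read 3.06 in ALL-SIL, 9.11 in CCRF-CEM, 8.87 in HPB-ALL, 3.60 in LOUCY, 5.13 in PEER and 10.93 in JURKAT, against 10.80 in CML-T1, 9.14 in MOLT-4, 5.30 in MOLT-14, 5.67 in MOLT-16 and 10.98 in SUP-T1. ALL-SIL, LOUCY and PEER were lowest for both genes, and MOLT-14, with little RAG1 or RAG2, combined high ARPP21 with low ELOVL4. The 6 ARPP21 probe sets did not read alike: 1 stayed between 2.54 and 3.51 in all lines, at background, and the 5 probe sets other than the brightest, that one included, correlated with it at r = 0.52 to 0.93.

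**Figure D2:**
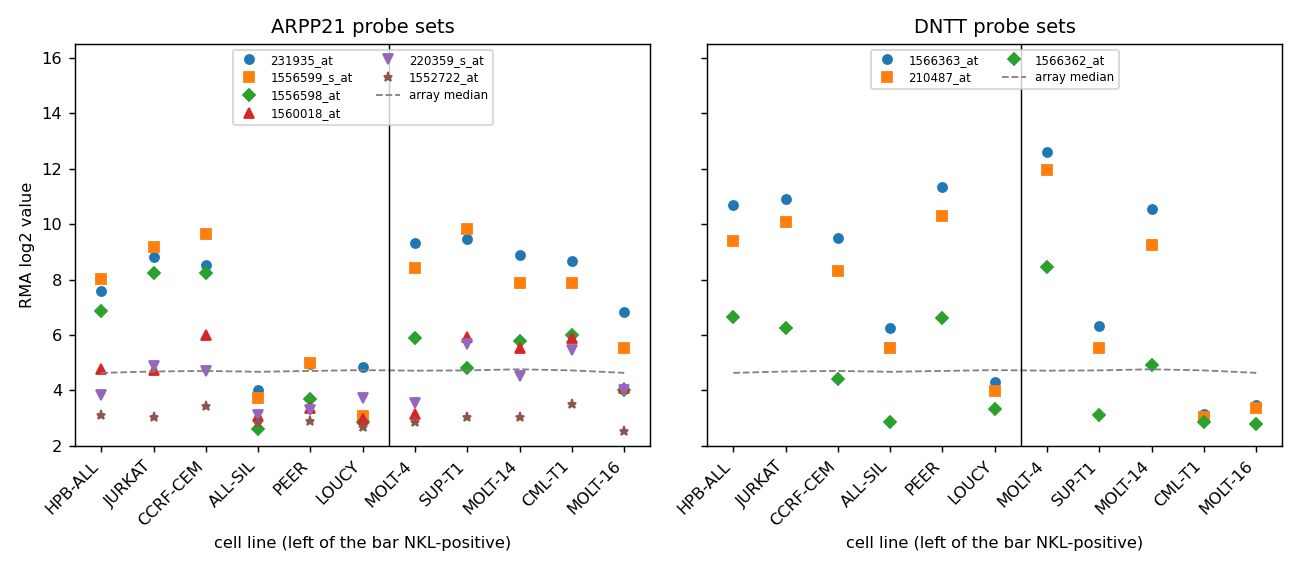
RMA log2 values of the 6 ARPP21 probe sets (left panel) and the 3 DNTT probe sets (right panel) in the 11 lines, NKL-positive left of the vertical bar and NKL-negative right of it, with each array's median as a dashed line. The 2 brightest ARPP21 probe sets separate ALL-SIL, PEER and LOUCY from the other lines, 1 stays below the array median everywhere, and the DNTT probe sets run in parallel.

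The CD1 genes lie side by side within 179524 bases of chromosome 1, and RAG1 and RAG2 within 87884 bases of chromosome 11 (GRCh38.p14). The 250 bases before the annotated start of 5 members are shown in the sense direction, as RefSeq gives them for GRCh38.p14: a pair of CD1 genes, the recombinase genes, whose levels ran together, and DNTT, which matched neither pair. Capitals mark matches on either strand to an E-box (CACCTG), a RUNX motif (TGTGGT), a TCF/LEF motif (CTTTGA) or a GATA motif (GATAAG), named for the factor families that act on thymocyte genes.
CD1C, chr1:158289673-158289922, plus strand: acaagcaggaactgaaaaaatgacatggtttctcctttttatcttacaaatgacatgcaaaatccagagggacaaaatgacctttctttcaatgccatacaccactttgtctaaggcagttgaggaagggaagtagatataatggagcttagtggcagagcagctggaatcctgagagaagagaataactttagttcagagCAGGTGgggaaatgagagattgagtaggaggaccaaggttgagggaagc
CD1E, chr1:158353644-158353893, plus strand: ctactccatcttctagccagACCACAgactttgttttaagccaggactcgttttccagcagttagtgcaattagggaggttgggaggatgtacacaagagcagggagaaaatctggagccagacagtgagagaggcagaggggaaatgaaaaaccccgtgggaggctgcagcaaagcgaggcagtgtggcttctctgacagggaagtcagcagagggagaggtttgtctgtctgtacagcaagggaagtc
RAG1, chr11:36510103-36510352, plus strand: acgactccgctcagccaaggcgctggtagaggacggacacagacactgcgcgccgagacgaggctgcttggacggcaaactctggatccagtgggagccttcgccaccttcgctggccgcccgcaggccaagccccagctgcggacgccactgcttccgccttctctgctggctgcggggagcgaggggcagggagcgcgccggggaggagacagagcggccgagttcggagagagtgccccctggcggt
RAG2, chr11:36598237-36598486, minus strand: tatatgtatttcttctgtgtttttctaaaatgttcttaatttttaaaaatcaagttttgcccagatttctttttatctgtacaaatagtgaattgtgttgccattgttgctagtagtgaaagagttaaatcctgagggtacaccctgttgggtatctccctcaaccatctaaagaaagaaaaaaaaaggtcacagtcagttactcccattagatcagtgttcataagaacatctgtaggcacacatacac
DNTT, chr10:96304184-96304433, plus strand: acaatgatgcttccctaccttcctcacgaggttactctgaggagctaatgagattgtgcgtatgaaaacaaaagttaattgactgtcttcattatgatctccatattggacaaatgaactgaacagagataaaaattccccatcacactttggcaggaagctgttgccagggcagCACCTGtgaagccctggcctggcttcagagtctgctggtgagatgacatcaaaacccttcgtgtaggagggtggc

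In these windows CD1C and DNTT each held 1 E-box of the form CACCTG, CD1E held 1 RUNX motif, and those of RAG1 and RAG2 held none of the 4 motifs as spelled above. Other forms of the E-box were not searched. Of 35116 human windows of this length, 17.5% held the E-box, 10.98% the RUNX motif, 11.2% the TCF/LEF motif and 5.65% the GATA motif, so these matches are frequent and are given as a description. The RAG1 window had 70% G and C with 25 CG pairs, and the RAG2 window had 34% with 0, against medians of 58% and 11 over all windows. The windows before the annotated starts of RAG1 and RAG2, whose levels ran together, thus differed in composition. The RAG1 window lies before the outermost start of a locus of 69410 bases. It overlaps the neighbouring gene TRAF6, which lies 81 bases from that start. Which start these lines use was not measured, so these windows need not be the ones behind the measured levels. The CD1C window had 42.4% G and C with 0 CG pairs, the CD1E window 52% with 3, and the DNTT window 46.4% with 3. Windows were at hand for 9 of the 10 members.

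The annotated start of RAG1 lies 81 bases from TRAF6, an adaptor of innate immune signalling, which was above the array median in all 11 lines at 6.38 to 8.33 (r = 0.46 with the mean of RAG1 and RAG2). Near the CD1 cluster, KIRREL1, an adhesion molecule, ranged from 3.02 to 7.95 (r = 0.66 with the mean of the CD1 genes). TRAF6 and KIRREL1 had the highest r at their loci. LINC01704, which lies nearer to the CD1 genes, had r = 0.28, and FCRL2, FCRL3, CD5L, MNDA and FCRL1 ran from 0.33 to -0.32. Around RAG1 and RAG2, r was 0.25 for LOC101928510, 0.18 for IFTAP, -0.20 for PRR5L, -0.24 for COMMD9 and -0.52 for LDLRAD3. The Fc receptor-like genes FCRL1 and FCRL3, farther along the same chromosome, stayed below the array median in every line, and FCRL2 of the same family was above it in 3 (3.64 to 5.03).

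By Pearson r over all 11 lines, the 10 genes fell into 2 sets and a single gene. The 10 pairs among CD1 genes correlated at r = 0.73 to 0.94 (median 0.85), and the 6 pairs among RAG1, RAG2, ARPP21 and ELOVL4 at r = 0.70 to 0.93. The 20 pairs between both sets ran from 0.27 to 0.67. DNTT correlated with the 9 other genes at 0.07 to 0.61. It lay nearer to the CD1 genes, at 0.48 to 0.61, than to the other set, at 0.07 to 0.27. These are descriptions over 11 lines that share a platform and a normalization, and the CD1 pairs also share high lines. HPB-ALL and MOLT-4 were highest for CD1B, CD1C and CD1E. For CD1A, MOLT-14 and SUP-T1 read above MOLT-4, and for CD1D, JURKAT and SUP-T1 did. Without the 2 lines farthest from the median of the first gene, the CD1 pairs ran from 0.66 to 0.91, the recombinase set from 0.62 to 0.94 and the pairs between sets from 0.08 to 0.80. Spearman's rho overlapped too, at 0.62 to 0.86 in the recombinase set and 0.18 to 0.71 between sets. In the 8 lines with poly-A controls, CD1C and ARPP21 correlated at r = 0.83, and CD1A and CD1E at r = 0.58. The division into sets thus depended on the lines and the measure.

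**Figure D3:**
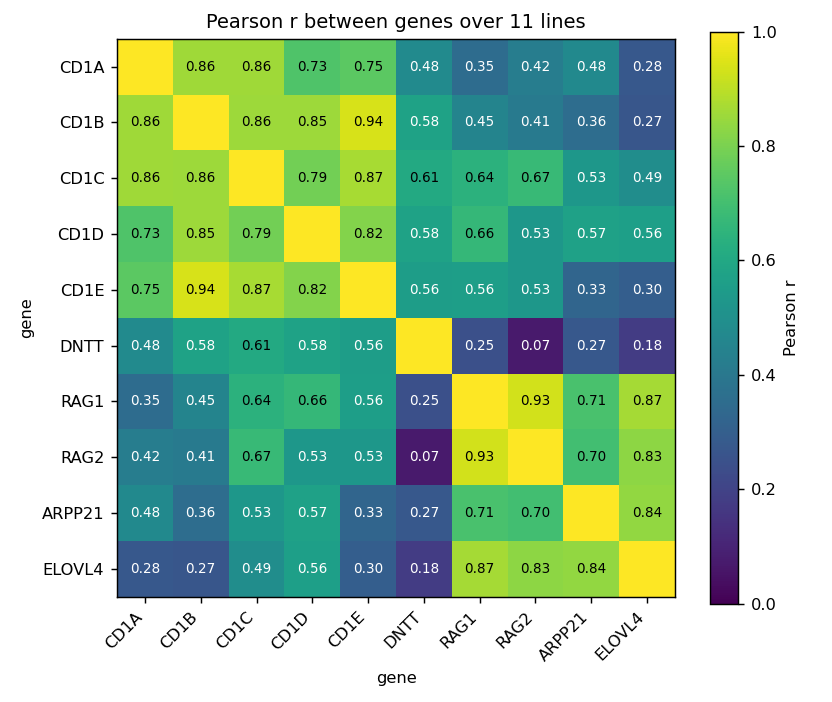
Pearson r between the 10 genes over the 11 lines, with genes on both axes in the order CD1 genes, DNTT, recombinase genes, ARPP21 and ELOVL4. CD1 pairs reach 0.73 to 0.94, the set of RAG1, RAG2, ARPP21 and ELOVL4 reaches 0.70 to 0.93, and DNTT lies between 0.07 and 0.61 with the rest.

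Averaged by role, the CD1 genes and the recombinase genes correlated at r = 0.56 (Spearman's rho = 0.71), and at r = 0.48 without LOUCY and HPB-ALL. Relative to the gene medians, CML-T1 had a CD1 mean of -2.44 with a recombinase mean of 1.68, MOLT-14 had 1.34 with -2.79, and ALL-SIL had 0.49 with -2.38. In those 3 lines both means had opposite signs, as in CCRF-CEM, with -1.08 and 0.71. In ALL-SIL the CD1 mean came from CD1B and CD1E, since CD1A and CD1D were at their medians and CD1C was below its own. LOUCY, PEER and MOLT-16 were below 0 on both, and HPB-ALL, MOLT-4, SUP-T1 and JURKAT (1.35 and 0.07) were above 0 on both. The recombinase genes went with ARPP21 and ELOVL4 at r = 0.84 and with DNTT at r = 0.17. DNTT and the mean of the CD1 genes correlated at r = 0.60, and at r = 0.38 in the 8 lines with poly-A controls.

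**Figure D4:**
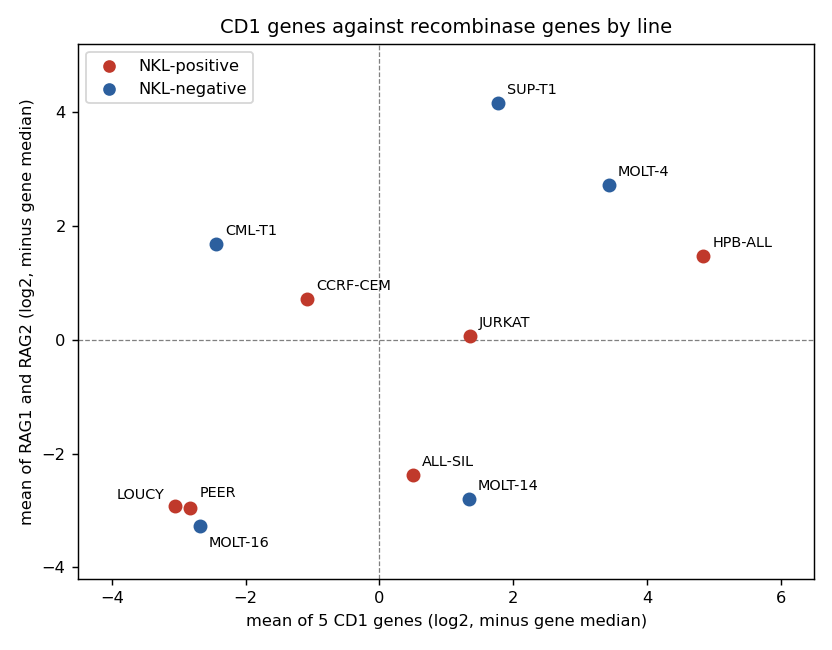
Mean log2 deviation of RAG1 and RAG2 from the gene medians (vertical axis) against that of the 5 CD1 genes (horizontal axis), 1 point per line, NKL-positive red and NKL-negative blue, with dashed lines at 0. CML-T1 lies at -2.44 and 1.68, MOLT-14 at 1.34 and -2.79, and both colours occur in the upper right and the lower left.

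Among 7174 genes with a range of at least 2 log2 units and a highest value above the median of its array, likeness to each member was ranked by Pearson r over the 11 lines. RAG2 was the nearest gene to RAG1 and RAG1 to RAG2 (r = 0.93), and CD1E was the nearest to CD1B and CD1B to CD1E (r = 0.94). ELOVL4 came next after RAG2 for RAG1 (r = 0.87), and CD1C ranked 3 for CD1E (r = 0.87). Genes outside the members led for the others: ZNF204P for CD1A (r = 0.91), PKP1 for CD1C (r = 0.90), SYCP2L for CD1D (r = 0.95), SEPTIN8 for ARPP21 (r = 0.90) and LYG1 for ELOVL4 (r = 0.91). For DNTT they were RAD54B (r = 0.90), STAM-DT (r = 0.90) and XRCC3 (r = 0.85). RAD54B and XRCC3 take part in homologous recombination. The score of the line was most like SYCP2L (r = 0.93), ATP6AP1L (r = 0.86), TLCD4 (r = 0.85) and ADA (r = 0.84), the last being adenosine deaminase, whose loss blocks lymphocyte development. Several of the genes named here were dim and fell below the lower quartile of the array in some lines. Among them were SYCP2L (2.80 to 5.66), TLCD4 (3.05 to 6.41), ZNF204P (2.75 to 5.38), STAM-DT (2.88 to 5.19) and TOGARAM2 (3.31 to 6.61). PKP1 fell below that quartile in MOLT-16, at 3.04, and read 7.90 in HPB-ALL against 5.26 or less in every other line. ADA read 12.16 in ALL-SIL, 11.84 in CCRF-CEM, 12.57 in HPB-ALL, 10.84 in LOUCY, 11.63 in PEER and 12.60 in JURKAT, against 10.73 in CML-T1, 13.15 in MOLT-4, 12.24 in MOLT-14, 10.91 in MOLT-16 and 12.68 in SUP-T1. The opposite order was clearest in CTSC, the lysosomal cathepsin C (r = -0.90), TOGARAM2 (r = -0.89), CASP10, an initiator caspase (r = -0.87), and BLZF1 (r = -0.86). They were picked as the extremes of all 7174 genes and are given as descriptions.

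The NKL-positive lines were compared with the NKL-negative lines in 5 against 5 lines without JURKAT, the lines that the study itself compared. In this comparison 8 of the 10 genes had a lower mean in NKL-positive lines and 2 a higher one, with a median difference of -1.02, while the median over all genes was -0.002 and 50.1% of genes were lower. None of the 10 passed limma's test after Benjamini-Hochberg adjustment over all probe sets, the smallest adjusted p being 0.968. The same test called 5 of the 54613 probe sets, which is 0.00916%. At an unadjusted p under 0.05, 1 of the 10 genes passed against 5.26% of all genes, and the groups did not overlap for 0 of the 10 against 0.905% of all genes. The 8 of 10 count is not 10 independent observations, since the genes of a set vary together and every line contributes to all of them.

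ARPP21 was the gene that passed before adjustment. It averaged 5.98 ± 1.95 in NKL-positive lines and 8.63 ± 1.06 in NKL-negative lines (SD, 5 lines each), a difference of -2.66 with a standard error of 0.87 (limma, unadjusted p = 0.0118, adjusted p = 0.968). The groups overlapped through CCRF-CEM at 8.52 and HPB-ALL at 7.57, both above MOLT-16 at 6.83, and JURKAT, outside the comparison, read 8.82. The other ARPP21 probe sets differed less, at -2.01, -0.44, -0.88, -0.91 and -0.00. ELOVL4 averaged 5.95 ± 2.87 in NKL-positive lines and 8.38 ± 2.74 in NKL-negative lines, a difference of -2.42 with a standard error of 1.55.

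RAG1 averaged 5.43 ± 2.11 in NKL-positive lines and 7.17 ± 3.88 in NKL-negative lines, a difference of -1.74 with a standard error of 1.72. RAG2 averaged 4.46 ± 2.18 in NKL-positive lines and 6.16 ± 2.85 in NKL-negative lines, a difference of -1.70 with a standard error of 1.40. For both genes the difference was smaller than the spread among NKL-negative lines, and it ran from -2.84 without MOLT-16 to -0.71 without SUP-T1 for RAG1 and from -2.48 to -0.89 without the same lines for RAG2. Differences for the CD1 genes were -1.22 for CD1A, -0.77 for CD1B, -0.46 for CD1C, -0.82 for CD1D and 0.22 for CD1E, with standard errors from 1.30 to 2.28. Single lines decided much of their size: CD1A ran from -2.55 without HPB-ALL to -0.35 without MOLT-14, and CD1D from -1.68 without HPB-ALL to -0.19 without SUP-T1, and CD1D differed by -0.06 once JURKAT was added. DNTT averaged 8.42 ± 3.02 in NKL-positive lines and 7.22 ± 4.23 in NKL-negative lines, a difference of 1.20 with a standard error of 2.03, which was 0.18 without CML-T1 and 2.54 without MOLT-4. The standard errors were 1.30 or more for every gene except ARPP21, so differences of that size and larger could go undetected with these lines. ARPP21, with a difference of -2.66 and a standard error of 0.87, did not pass the adjusted test either.

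**Figure D5:**
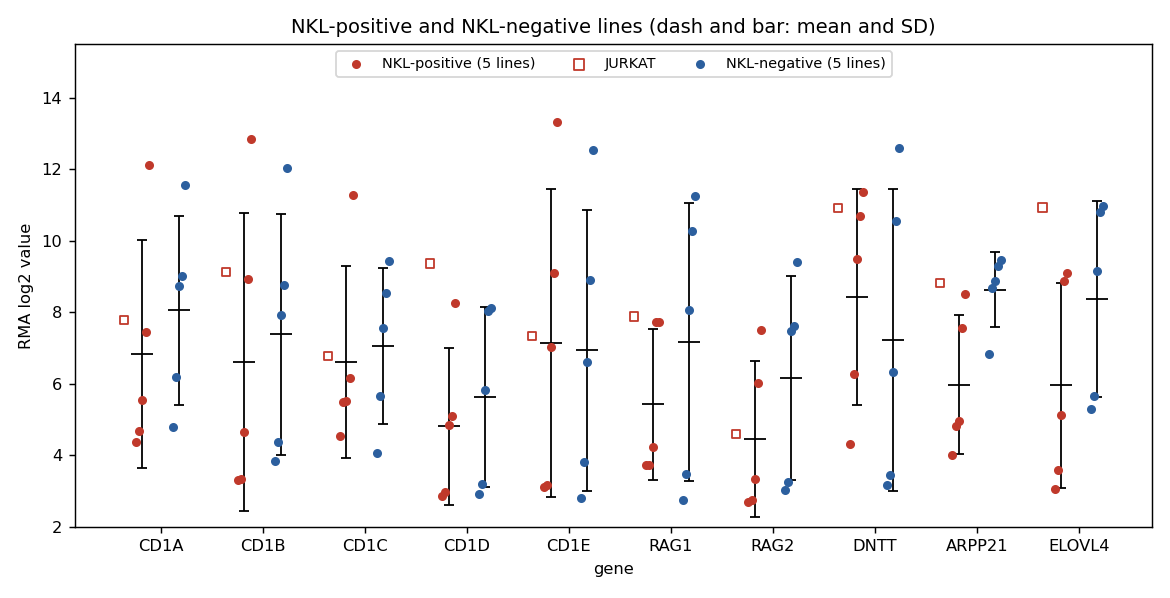
RMA log2 values of the 10 genes by line, 5 NKL-positive lines (red, left of each pair) and 5 NKL-negative lines (blue, right), with mean (dash) and SD (bar) and JURKAT as an open square outside the comparison. The groups overlap for every gene, and ARPP21 has the smallest spread, with means of 5.98 and 8.63.

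The difference depended on which lines entered. Among the lines in which poly-A controls gave a signal, 4 of them NKL-positive and 3 NKL-negative with JURKAT again left out, all 10 genes had a lower mean in NKL-positive lines, and 5 of them passed at an unadjusted p under 0.05, against 4.41% of all genes that were lower at that p. None passed after adjustment. Differences there were -4.26 for CD1A, -4.52 for CD1B, -3.09 for CD1C, -3.39 for CD1D and -3.64 for ARPP21. Apart from ARPP21 these 5 are CD1 genes, which vary together, so they are not independent observations. JURKAT has the controls but did not enter. It read 7.78 for CD1A, 9.13 for CD1B, 6.77 for CD1C, 9.36 for CD1D and 8.82 for ARPP21. In the 3 lines without these controls the order was the other way for 9 of the 10 genes, since HPB-ALL, the NKL-positive one, was high and the NKL-negative CML-T1 and MOLT-16 were low for most of them. CD1E thus differed by -3.74 with the controls and by 10.02 without them. With a term for the controls in the fit, 8 genes were lower. The score correlated with the difference between the 3' and 5' ends of ACTB, which grows as RNA or cDNA is less intact, at r = 0.55 over 11 lines and at r = 0.85 over the 8 lines with poly-A controls, and with the controls' own mean at r = -0.06. Their part in the result was not tested.

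Other genes of the same stage and machinery were set beside the members. Of 18 measured genes typical of double positive thymocytes outside the members, 4 had a higher and 14 a lower mean in NKL-positive lines (median -0.16), and none passed the adjusted test. The smallest p values in that list belonged to SATB1, a chromatin organizer of thymocytes (1.14), the homing receptor CCR9 (-2.51) and the signalling adaptor SH2D1A (-0.64). The coreceptors, picked after their values were seen, followed the score only in part. CD8A read 11.11 in HPB-ALL, 10.28 in SUP-T1 and 7.03 in MOLT-4, and CD4 read 10.34, 8.38 and 6.78 in the same lines, while LOUCY had CD8A at 3.73 and CD4 at 5.68. MOLT-4 thus had all 10 members high with coreceptor levels below those of the 2 other high lines.

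The partners of the recombinase in end joining were present in every line, with 14 or 15 of 15 measured genes above the array median. Of these 12 had a higher and 3 a lower mean in NKL-positive lines (median 0.19), led by XRCC6, the smaller Ku subunit, at 0.71. Among 17 regulators of the recombinase genes 10 were higher and 7 lower (median 0.12), and RUNX3, a RUNX factor of T-cells, differed by 2.40. JURKAT, outside the comparison, had the lowest RUNX3 of all 11 lines, 5.30, and the NKL-negative CML-T1 read 9.95. Of 14 genes for lipid loading and chain partners of CD1, 10 were higher and 4 lower (median 0.26), among them the chaperone calnexin, CANX, at -0.72 and cathepsin S, CTSS, at 1.75. The 10 measured fatty acid elongation genes divided evenly, 5 higher and 5 lower (median 0.03), and of 5 relatives of ARPP21 3 were higher and 2 lower (median 0.10). None of these genes passed the adjusted test.

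Markers of other stages and cell types were read in the same lines, since dendritic cells, monocytes and B-cells also express CD1 genes and early B-cells express RAG1, RAG2 and DNTT. Of 8 dendritic and monocytic markers 1 to 3 were above the array median in any line, and the members of that list named here, other than CD14, were picked after their values were seen. FCER1A (2.79 to 3.44), a receptor chain of dendritic cells and mast cells, was below the lower quartile of the array in all 11 lines. CD207, which defines Langerhans cells (3.02 to 4.20), and CD14, which defines monocytes (3.04 to 3.98), stayed below the array median in all 11, but CD207 lay above the lower quartile in 6 and CD14 in 7. CD83, carried by mature dendritic cells and by activated lymphocytes, was above the array median in all 11 lines (6.27 to 9.21) and above the upper quartile in 9, and CSF1R, a receptor of monocytes, was above the median in 4 (3.46 to 5.38). The mean level of the 8 markers was 4.13 to 4.71 in NKL-positive lines and 4.02 to 4.27 in NKL-negative lines. Of 8 B-lineage markers 2 to 6 were above the array median. Their mean levels were 4.36 to 6.83 in NKL-positive lines and 4.22 to 5.82 in NKL-negative lines. CD79B differed by 2.19, while JURKAT, outside that comparison, read 4.19, below the NKL-negative mean of 4.83. LOUCY had the highest B-lineage mean, with VPREB1, a surrogate light chain gene picked after its values were seen, at 10.95, and none of the 10 CD1 and rearrangement genes above the upper quartile. Of 13 early progenitor markers 9 had a higher and 4 a lower mean in NKL-positive lines (median 0.26). They were led by IGLL1, the other surrogate light chain, at 4.76 with an adjusted p of 0.738 by limma. JURKAT read 5.37 for IGLL1, below the NKL-negative mean of 6.24. Mature T-cell genes had 7 of 9 higher, 1 lower and 1, CD27, with equal means (median 0.76), of the B-lineage markers 6 and 2 (median 0.15), of the dendritic and monocytic markers 5 and 3 (median 0.22) and of the T-lineage markers 5 and 4 (median 0.26), again with none past the adjusted test. In these cultures a smaller share of expressing cells and less RNA per cell cannot be told apart.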

How the data were processed

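RNA extracted with TRIzol from each line was hybridized to 1 array at the institute of pathology that provided the data, and the values were made by RMA, which corrects background, equalizes the distributions of all arrays by quantiles and condenses the probes of each set to 1 value, with affy and limma per the submitters' notes. The deposited log2 values lie between 2.24 and 14.6, carry no depth and were used as given. Precision is limited by the number of arrays. Symbols came from the platform annotation, in which 41091 probe sets have 1 symbol, 1801 several and 11721 none. Tests excluded 62 control probe sets.

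The 10 lines without JURKAT were compared with limma 3.58.1 in R 4.3.3, with Benjamini-Hochberg adjustment over 54613 probe sets at 0.05. P-values set the difference between groups against the spread between lines, which includes differences of culture and array. Scores, correlations and figures used Python 3.11.15 with pandas 2.3.3, numpy 2.4.6, scipy 1.17.1 and matplotlib 3.10.9. The procedure was tested on simulated data.

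All 10 members are named. Other names were drawn from the 8 most and 4 least alike genes to the score, the 3 most alike to each member, and the 3 smallest p in each of 11 lists, of which only some are printed: double positive thymocyte genes, end joining, recombinase regulators, lipid loading, elongation, ARPP21 relatives, T-lineage, early progenitor, mature T-cell, B-lineage, and dendritic and monocytic markers. Neighbours of the loci and genes marked as picked later are named besides. Members and lists were chosen with earlier results of these data known. Alternatives were all 11 lines, each line left out, a term for poly-A controls, only lines with them, median centring, quantile normalization, a floor at the 25th percentile, a filter, an intensity trend, array weights and the mean over probe sets.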

Additional observations from a re-analysis of the deposited data

Results flagged for a closer look

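Among the 22 groups of values examined, the 10 genes and the score in each of both NKL groups, 1 held a line far from the rest. CD1C read 11.28 in HPB-ALL, and the next NKL-positive line, JURKAT, read 6.77, so that this gap made up 0.669 of the range of the 6 lines. Chance marks about 1 in 20 such groups. HPB-ALL is also 1 of 3 lines without a signal from the poly-A controls, and the part of that in its CD1C level was not tested.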

How the results depend on the processing

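The score of the 10 genes differed by -1.30 between NKL-positive and NKL-negative lines (-0.97 ± 2.72 and 0.33 ± 2.32, SD, n = 5 each) and stayed below 0 under every alternative run, from -3.79 in lines with poly-A controls alone to -0.60 without LOUCY. Of 200 values of single genes under alternatives, 188 kept their direction, 12 in 4 genes did not, and 0 reached an adjusted p under 0.05. CD1B ran from -2.33 to 0.39 and CD1C from -1.63 to 0.14 when lines were left out in turn, both highest without MOLT-4 and above 0 also without LOUCY, and CD1B without PEER. CD1E ran from -1.33 without HPB-ALL to 1.62 without MOLT-4 and fell below 0 also without CML-T1, MOLT-16 or ALL-SIL. It differed by -3.74 and DNTT by -1.97 in lines with poly-A controls, and CD1E by -0.75 with array weights. Probe sets called numbered 5, against 0 with all 11 lines (2553 at an unadjusted limma p under 0.05, against 2675 without JURKAT), 3 with a poly-A term, 3 in lines with poly-A controls, 3 with the floor, and 3 (without CML-T1, HPB-ALL or PEER) to 13 (without LOUCY) when lines were left out, with 9 without MOLT-14. The cause was not tested. No paired analysis was possible because no line belongs to both groups. The score was not recomputed under the filter or the intensity trend.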
